A study of Mus musculus with 4 samples.

Results

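The genes of cholesterol synthesis and of its control by sterol regulatory element binding proteins (SREBPs) were read on 4 Affymetrix mouse arrays. The list of 33 genes holds SREBP regulators, enzymes of the sterol pathway, sterol transporters and enzymes of fatty acid synthesis, and a gene counted as measured where a probe set carried its symbol alone in the array's annotation. Of these 33 genes, 32 were measured, among 18193 genes on the array. Acat2 was not measured under that symbol. The 32 genes were read by 75 of 45037 probe sets, and each is given by the probe set with the highest mean over the 4 arrays. A probe set is a group of short oligonucleotides for 1 transcript.

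RNA came from cultured mammary epithelial cells (MECs) of Deaf-1-/- origin, immortalised with a retrovirus for the HPV16 E6/E7 proteins, and from clones of these cells named C1 and E1. Each clone received either a retrovirus encoding Deaf-1, a transcription factor, or an empty control retrovirus, and was selected in puromycin for 48 hours. Each of the 4 combinations was hybridized to 1 array, so each retrovirus group holds 1 array of each clone and each clone group holds 1 array of each retrovirus. All 4 samples share the Deaf-1 deletion, E6/E7 and puromycin. Each retrovirus group stands for 2 clones, each clone group for 1, and each clone is a single line. The results of the paper name a single donor mouse and its methods speak of 8-week-old female mice, so p-values here measure only the spread between these arrays, not between animals. The number of arrays limits the precision.

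Cells build cholesterol from acetyl-CoA by way of mevalonate, isoprenoid units, squalene and lanosterol. When membranes of the endoplasmic reticulum run low in sterol, Scap escorts SREBPs to the Golgi, where proteases release the part that enters the nucleus and switches on genes of sterol and fatty acid synthesis, while the Insig proteins hold the complex back when sterol is plentiful. When sterol is in excess, liver X receptors switch on cholesterol efflux genes such as Abca1 and also Srebf1. In the mammary gland this programme is best known for supplying lipid for milk.

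Promoter windows of 4 of the genes are shown first, because sequence motifs of these regulators are known. RefSeq's table for GRCm38.p6 held a window for 26 of the 33 genes, each running from 250 bases before to 50 bases after a transcript start. The motif searches were chosen after the data had been seen, cover both strands and describe letters only. A sterol regulatory element was searched as TCACNCCAC, the CCAAT box (the site of NF-Y, a usual partner of SREBPs) as CCAAT, and a liver X receptor site of the DR4 kind as GGTNA and GGTCA separated by 5 bases. Capitals mark the matches of these 3 motifs, which do not overlap one another in the windows shown, although CCAAT matches on opposite strands run together in Fasn. Hmgcs1, at chr13:119690101-119690400 on the plus strand, is shown for its sterol element. Abca1 (chr4:53159846-53160145, minus strand) and Fasn (chr11:120824498-120824797, minus strand) are shown for the same 15 letters, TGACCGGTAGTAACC. Acly (chr11:100527951-100528250, minus strand) is shown as the gene with the lowest value in clone E1 relative to C1.
Hmgcs1: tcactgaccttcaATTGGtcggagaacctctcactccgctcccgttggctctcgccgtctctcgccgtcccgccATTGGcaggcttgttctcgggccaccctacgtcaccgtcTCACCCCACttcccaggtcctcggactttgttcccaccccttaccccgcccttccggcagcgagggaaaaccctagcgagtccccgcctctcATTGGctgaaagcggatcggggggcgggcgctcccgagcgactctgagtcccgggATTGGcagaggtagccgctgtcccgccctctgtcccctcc
Abca1: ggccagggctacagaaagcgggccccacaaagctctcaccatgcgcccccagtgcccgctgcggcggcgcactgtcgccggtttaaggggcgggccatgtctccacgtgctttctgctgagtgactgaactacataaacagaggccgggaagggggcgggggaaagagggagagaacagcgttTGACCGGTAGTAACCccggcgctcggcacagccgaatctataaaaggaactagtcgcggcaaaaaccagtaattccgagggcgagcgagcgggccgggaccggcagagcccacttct
Fasn: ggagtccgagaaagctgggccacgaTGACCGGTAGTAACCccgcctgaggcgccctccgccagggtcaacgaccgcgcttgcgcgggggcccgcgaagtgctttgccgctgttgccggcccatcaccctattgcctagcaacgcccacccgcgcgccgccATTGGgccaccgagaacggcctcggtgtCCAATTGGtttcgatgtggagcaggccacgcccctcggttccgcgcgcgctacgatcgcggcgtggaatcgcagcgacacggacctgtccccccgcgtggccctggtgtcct
Acly: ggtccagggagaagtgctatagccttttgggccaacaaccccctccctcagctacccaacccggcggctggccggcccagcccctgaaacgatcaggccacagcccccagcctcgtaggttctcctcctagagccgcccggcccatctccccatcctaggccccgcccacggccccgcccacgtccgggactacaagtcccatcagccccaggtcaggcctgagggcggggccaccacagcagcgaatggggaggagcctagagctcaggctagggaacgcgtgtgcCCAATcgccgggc

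The sterol element occurred in the windows of 1 of the 26 genes, Hmgcs1, where it began 137 bases before the start, and in those of 1.44% of all 27025 genes in the table. The CCAAT box occurred in 21 of the 26 genes, or 80.8%, against 41.1% of all genes and 43.1% of the 9483 genes measured above background that had a window. Hmgcs1 carried 4 CCAAT matches and Mvk carried 5. The DR4 match was rare, with 0.226% of all genes holding it, and was present in 3 of the 26 genes. In Abca1 it began 67 bases before the start, in Fasn 225 bases and in 1 of the windows of Srebf1 182 bases. Deaf-1 is known to bind sequences with a TTCG core, and these 4 letters occurred in 20 of the 26 genes (76.9%), against 47.7% of all genes and 64.3% of those measured above background. A match of 4 letters is frequent in any window, and none of these matches is evidence of binding.

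The arrays were alike in scale, with medians between 3.77 and 3.87 on the log2 scale of the deposited RMA values, and between 49.2% and 50.8% of probe sets lay above a background level of 3.83 taken from 44 olfactory receptor probe sets. Deaf1 itself read 5.01 in C1 and 4.91 in E1 with the control retrovirus, above background although the cells are labelled Deaf-1-/-, and 6.73 and 6.25 with the Deaf-1 retrovirus, 1.53 higher on average. Where its probes lie relative to the deletion was not examined. The label of mammary epithelial cells was set against marker genes. Of 7 epithelial markers, Cdh1, Krt14 and Krt18 lay below background on all 4 arrays, Krt8 on 2 of them, Krt5 and Krt19 read 4.37 to 4.74, and Epcam 5.81 to 6.33. All 5 fibroblast-associated markers were above background on every array, with Col1a1 at 12.50 to 12.83 and Col1a2 at 12.88 to 13.14. Of 4 measured adipocyte markers, Lpl read 12.42 to 12.74 on all arrays and Adipoq lay below background on all, while Fabp4 read 2.57 and 3.77 in C1 against 10.59 and 10.56 in E1, and Pparg 3.16 and 2.95 against 6.62 and 6.53. On a linear scale the summed level of the epithelial markers was 143 to 161 in C1 and 137 to 163 in E1, that of the adipocyte markers (the larger part of it Lpl) 6577 to 6868 and 7103 to 7276, and that of the fibroblast markers 18053 to 18907 and 19516 to 20850. Leukocyte markers (3 of 3) lay below background on all arrays, as did 2 of 3 endothelial markers. Between the clones Fabp4, Pparg and the fibroblast marker Pdgfrb (0.83 higher in E1) passed an unadjusted p under 0.01 among these markers. The cells are therefore called by their labels only.

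All 32 genes were above background on all 4 arrays, from 4.45 for Tm7sf2 in Deaf-1-transduced E1 cells to 11.33 for Scd1 on the same array. The values of every gene on every array are shown in pathway order.

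**Figure D1:**
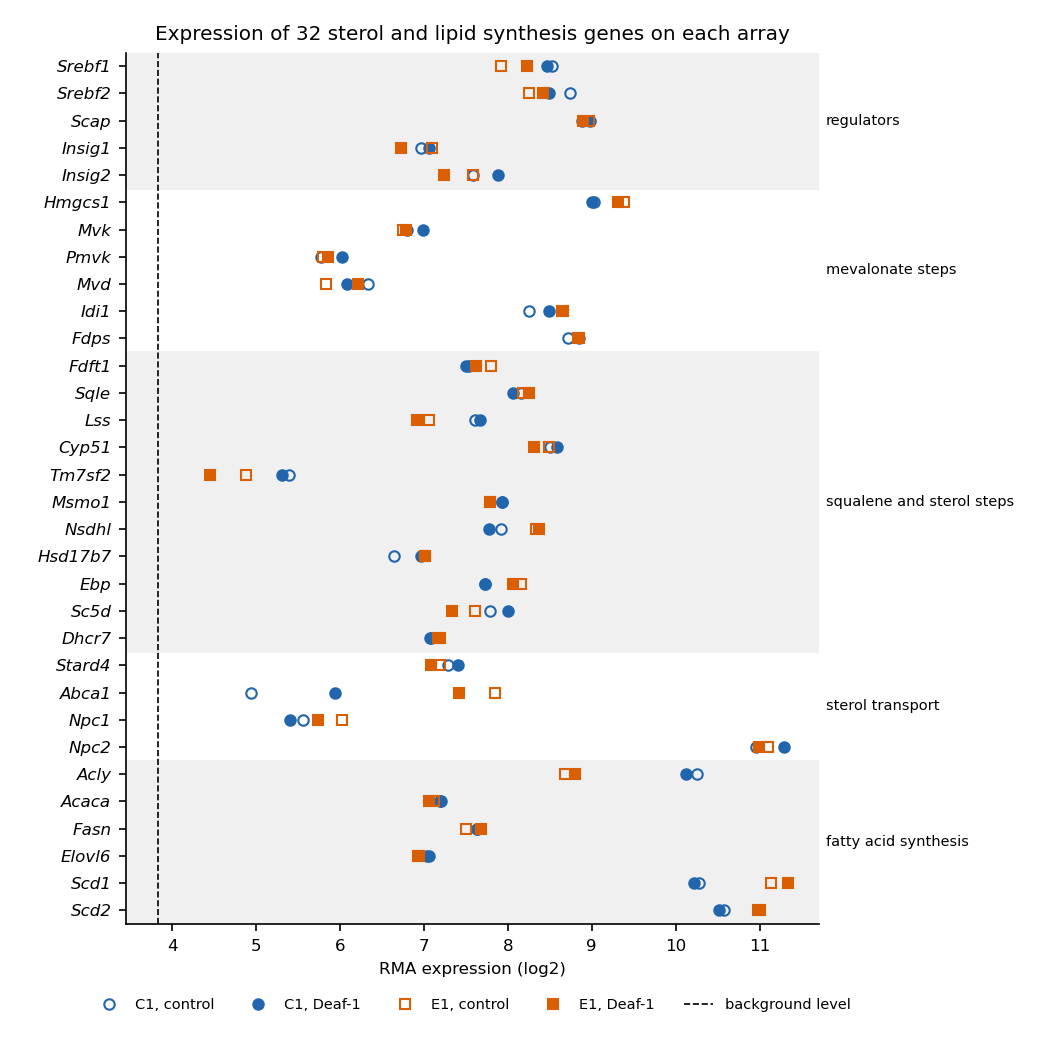
RMA expression (log2, horizontal axis) of 32 genes, ordered by their place in the pathway, with clone C1 as blue circles, clone E1 as orange squares, the control retrovirus open and the Deaf-1 retrovirus filled, and a dashed line at 3.83 for background. Acly, Abca1 and Scd1 separate by clone, while open and filled symbols of a clone lie close together for most genes. Values of different genes come from different probes, so levels are to be compared within a row.

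Whether Deaf-1 changed this programme was asked by setting the 2 Deaf-1 arrays against the 2 control arrays. None of the 32 genes passed an unadjusted p under 0.01, the threshold of the study, in limma's moderated test with clones as replicates. On the whole array 0.0111% of probe sets (5 of 45037) passed it. The paper lists more genes under this threshold. Deaf1 itself had p = 0.00123 in this test, larger than the paper's value, so the same threshold is stricter here. With clone as a block, again none of the 32 passed, against 0.0244% of probe sets. No gene had an adjusted p under 0.05. Likewise 0 of the 32 had an unadjusted p under 0.05 in either fit, where 0.433% of all probe sets had one, and 0.875% with clone as a block, so that counts of 0 are near those of the array. The differences between the Deaf-1 and control means ran from -0.26 to 0.29 with a median of -0.01, and the median over all probe sets was also near zero (-0.00434). The smallest p was 0.365, for Pmvk, and 0.193 with clone as a block, for Tm7sf2. These differences do not show that Deaf-1 left the genes unchanged, since the 95% intervals ran as wide as -2.59 to 3.17 for Abca1. With clone as a block the intervals of the 32 genes lay between -0.73 and 1.31, with a median standard error of 0.15.

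Among the regulators, Srebf1 encodes the SREBP best known for fatty acid synthesis and Srebf2 the one best known for cholesterol synthesis. On the log2 scale Srebf1 read 8.52 with the control retrovirus and 8.47 with Deaf-1 in C1, and 7.92 and 8.22 in E1, the order used from here on. Srebf2 read 8.74 and 8.49 in C1, and 8.26 and 8.42 in E1. Both were a little lower with Deaf-1 in C1 and a little higher in E1, with mean differences of 0.13 (standard error 0.26) and -0.04 (0.21). Scap, the escort, read 8.88 and 8.98 in C1, and 8.97 and 8.89 in E1. Insig2, 1 of the retention proteins, read 7.59 and 7.89 in C1, and 7.59 and 7.25 in E1, so that its arrays with the control retrovirus were equal and those with Deaf-1 lay on either side. Insig1 read 6.96 and 7.06 in C1, and 7.10 and 6.73 in E1. At the probe set chosen, each of the 5 regulators moved in opposite directions in the clones, with 3 up in C1 and down in E1 and 2 the other way. The second Srebf2 probe set, 1426744_at, was lower with Deaf-1 in both clones (-0.20 in C1 and -0.04 in E1). Opposite directions were found for 63.2% of genes above background.

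Of the 6 measured enzymes of the mevalonate steps, 3 were higher with Deaf-1 in both clones, 1 was lower in both and 2 moved in opposite directions. These counts are for the probe sets chosen, and 14.8%, 21.4% and 63.2% of genes above background did so. Hmgcs1, the synthase that makes HMG-CoA and the only gene with the sterol element above, read 9.03 and 9.01 in C1, and 9.38 and 9.32 in E1. Deaf-1 minus control was -0.02 in C1 and -0.06 in E1. Its other probe sets above background had opposite signs in the clones. In C1 and E1 they gave 0.12 and -0.03 (1433444_at), 0.18 and -0.07 (1433443_a_at), and -0.06 and 0.02 (1433446_at). Mvk and Pmvk, the kinases that phosphorylate mevalonate, and Idi1, the isomerase of the isoprenoid units, gave Deaf-1 minus control values above zero in each clone, 0.19, 0.25 and 0.24 in C1 and 0.04, 0.06 and 0.01 in E1, without passing the test. In C1 these 3 differences lay above the median absolute change of all probe sets in that clone (0.15), and in E1 they lay below it (0.17). The second Mvk probe set, 1418052_at, gave 0.02 in C1 and 0.41 in E1, but that of Idi1, 1423804_a_at, gave 0.05 and -0.64. Mvd, the decarboxylase between them in the pathway, read 6.33 and 6.09 in C1, and 5.83 and 6.22 in E1. Fdps, which joins the units to farnesyl diphosphate, had differences of 0.12 in C1 and -0.01 in E1.

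Among the enzymes from squalene to cholesterol, the mean differences with Deaf-1 ran from -0.26 to 0.16. Sqle, the squalene epoxidase, read 8.16 and 8.06 in C1, and 8.18 and 8.25 in E1. Msmo1, the sterol methyl oxidase, had the smallest mean difference of the 32 genes (0.000906), at 7.93 on both C1 arrays and 7.79 on both E1 arrays. Dhcr7, which makes the last reduction to cholesterol, likewise read 7.09 and 7.08 in C1, and 7.19 and 7.17 in E1. Tm7sf2, a sterol reductase, had the lowest mean difference of all 32 genes, with 5.39 and 5.31 in C1, and 4.89 and 4.45 in E1. It was lower with Deaf-1 in both clones, by 0.08 in C1 and 0.44 in E1, and did not pass in either fit. Fdft1, which makes squalene, Lss, which closes the rings, and Cyp51, Nsdhl, Hsd17b7, Ebp and Sc5d, which trim and rearrange the sterol, had mean differences between -0.11 and 0.16.

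Abca1, the transporter that exports cholesterol to apolipoproteins, had the highest mean difference and the most uneven. It read 4.94 and 5.94 in C1, and 7.85 and 7.42 in E1. The arrays of the retrovirus groups overlap, with 1.0 gained in C1 and a change of -0.42 in E1. Its other probe sets did not show the C1 change: 1421839_at read 4.68 on both C1 arrays, and 1450392_at read 3.06 and 3.22, below background. Npc1, the lysosomal cholesterol exporter, was lower with Deaf-1 in both clones (5.56 to 5.40 and 6.03 to 5.74), and did not pass. Npc2, its soluble partner, and Stard4, a sterol carrier, moved up in C1 and down in E1.

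The fatty acid enzymes differed little between the retroviruses. Fasn, the fatty acid synthase, read 7.63 on both C1 arrays, and 7.51 and 7.68 in E1. Acaca, the carboxylase that makes malonyl-CoA, read 7.20 and 7.21 in C1, and 7.12 and 7.06 in E1. Elovl6, an elongase, read 7.03 and 7.06 in C1, and 6.93 and 6.95 in E1. For Acly, Scd1 and Scd2 the mean differences were 0.00, 0.07 and -0.04.

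Of the 32 genes, 5 were higher with Deaf-1 in both clones, 6 were lower in both and 21 moved in opposite directions. Among the 11730 genes above background, each by its brightest probe set, 14.8%, 21.4% and 63.2% did so. Over all probe sets 39.3% moved the same way in both clones, against 11 of the 32 genes (34.4%). The shares among the 32 genes were therefore near those of the array. With 1 array for each clone and retrovirus, the change within a clone has no replicate and was not tested.

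**Figure D2:**
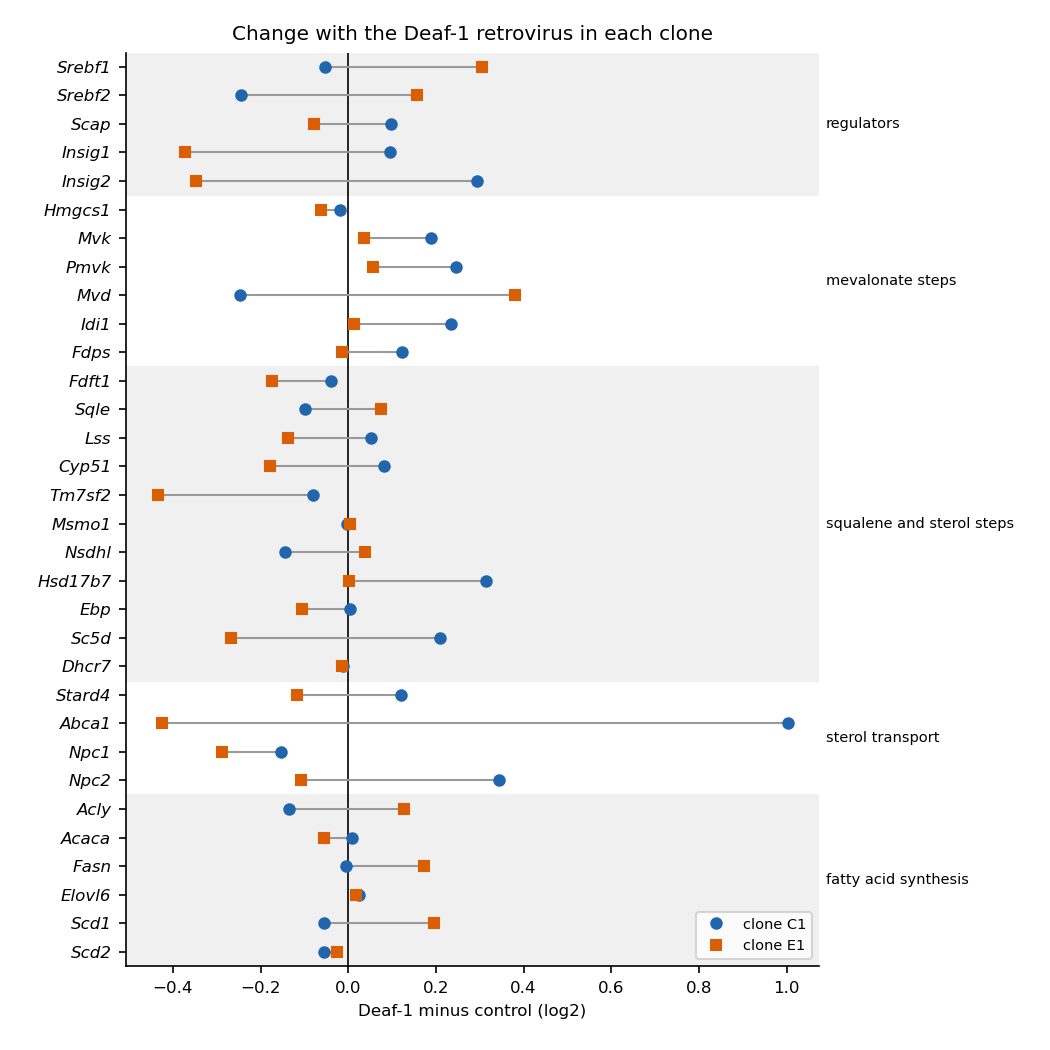
Change with the Deaf-1 retrovirus (Deaf-1 minus control, log2, horizontal axis) in clone C1 (blue circles) and clone E1 (orange squares) for 32 genes in pathway order, joined by a grey line. The symbols lie on opposite sides of zero for 21 genes, and Abca1 in C1 (1.0) lies farthest out.

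The clones were compared next, E1 minus C1, with retrovirus as a block. Abca1, a cholesterol exporter, and Scd1, a fatty acid desaturase, were higher and Acly, which makes acetyl-CoA, was lower in E1 at an unadjusted p under 0.01. In this fit none of the 17 measured sterol enzymes and none of the 5 regulators passed it, although Lss and Tm7sf2 did in several alternatives. The 3 of 32 genes that passed here (9.38%) compare with 10.3% of the genes above background (5.1% higher and 5.21% lower in E1). They also compare with 5.38% of all probe sets, and the share is near that of genes above background. None of the 32 had an adjusted p under 0.05 from limma (0.109% of all probe sets had), while 8 had an unadjusted p under 0.05, against 25.4% of genes above background. With clone alone in the model, 4 of the 32 genes (Acly, Scd1, Abca1 and Lss) had an adjusted p under 0.05. In that model 1179 of the 11730 genes above background had one, and 5.12% of all probe sets. The median difference was -0.07 and 26 of the 32 lay within 0.5 of zero, against 77.3% of genes above background. Both E1 arrays lay above both C1 arrays for 12 genes (background 28.6%), below them for 12 (33.4%) and overlapped for 8. The arrays of 75% of the 32 genes therefore did not overlap between the clones, against 62% of genes above background. A clone is a single line, and whether fewer cells of a type or less RNA per cell lies behind a value cannot be told apart in bulk RNA.

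**Figure D3:**
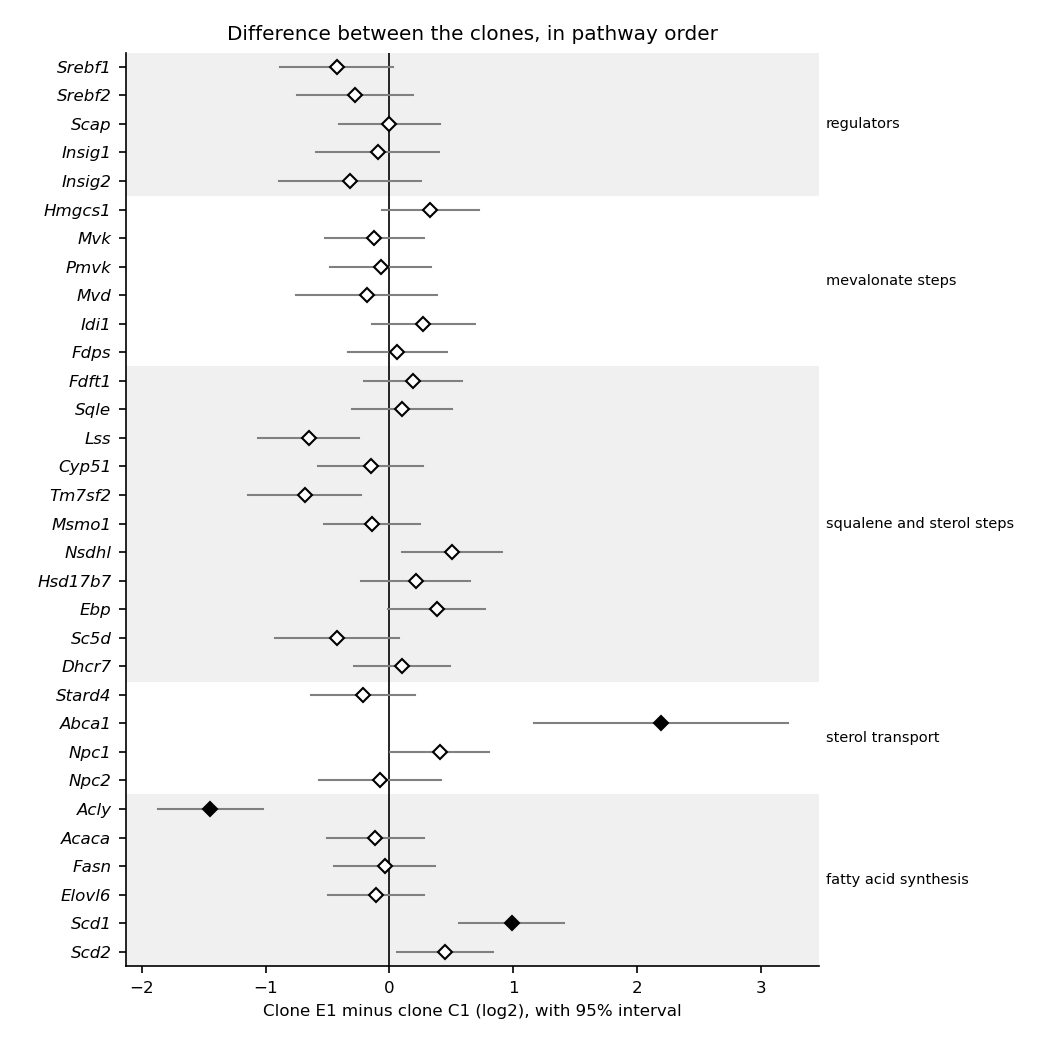
Clone E1 minus clone C1 (log2, horizontal axis) for 32 genes in pathway order, with the 95% interval of limma's fit with retrovirus as a block, and filled diamonds for an unadjusted p under 0.01. Acly (-1.45) lies far to the left and Scd1 (0.99) and Abca1 (2.19) to the right, while the regulators and mevalonate enzymes lie within 0.5 of zero.

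Acly, the enzyme that splits citrate to cytosolic acetyl-CoA at the head of both pathways, read 10.26 and 10.12 in C1 (control, then Deaf-1) and 8.68 and 8.81 in E1. The groups did not overlap, and E1 was lower by 1.45 (standard error 0.16, adjusted p = 0.0862), so that C1 was 2.73-fold higher. Probe sets 1439459_x_at and 1425326_at of Acly gave -1.34 each, both with p under 0.01. Its other 3 probe sets lay below background, and a mean over all 6 gave -0.78. Acaca and Fasn, which use the acetyl-CoA further on, had differences of -0.11 and -0.04, and Elovl6 had -0.11.

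Scd1 and Scd2 are desaturases that place the double bond in stearate and palmitate. Scd1 read 10.28 and 10.22 in C1, and 11.14 and 11.33 in E1, a 1.98-fold higher level in E1 (0.99 on the log2 scale, standard error 0.15, adjusted p = 0.129). The second Scd1 probe set, 1415965_at, read 7.46 and 7.56 in C1, and 8.96 and 8.99 in E1, a difference of 1.46. Scd2 read 10.57 and 10.52 in C1, and 11.01 and 10.98 in E1, a difference of 0.45 (adjusted p = 0.286). Its other probe sets gave 0.52 and 0.54, so that all probe sets of both desaturases were higher on both E1 arrays, with p under 0.01 for Scd1 alone.

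Abca1 had the largest difference of the 32 genes. From the values above, E1 was higher by 2.19 (standard error 0.38, 4.57-fold, adjusted p = 0.138), and the 2 C1 arrays were themselves 1.0 apart. Without the control array of E1 the difference was 1.98, and its unadjusted p was no longer under 0.01. Probe set 1421839_at gave 1.51 and 1450392_at gave 1.90, both with unadjusted p under 0.01, the latter from C1 levels below background, against which it was at least 1.21. Npc1 differed by 0.41 (adjusted p = 0.339), and Npc2 and Stard4 by -0.08 and -0.21. Abca1 and Fasn hold the same 15 letters in their promoter windows, and Fasn differed by -0.04. Fabp4 and Pparg, whose C1 values lay below background, were higher in E1 by at least 6.75 and 2.75 when set against the background level, and the part of these markers in the values of Abca1, Scd1 and Acly was not tested.

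**Figure D4:**
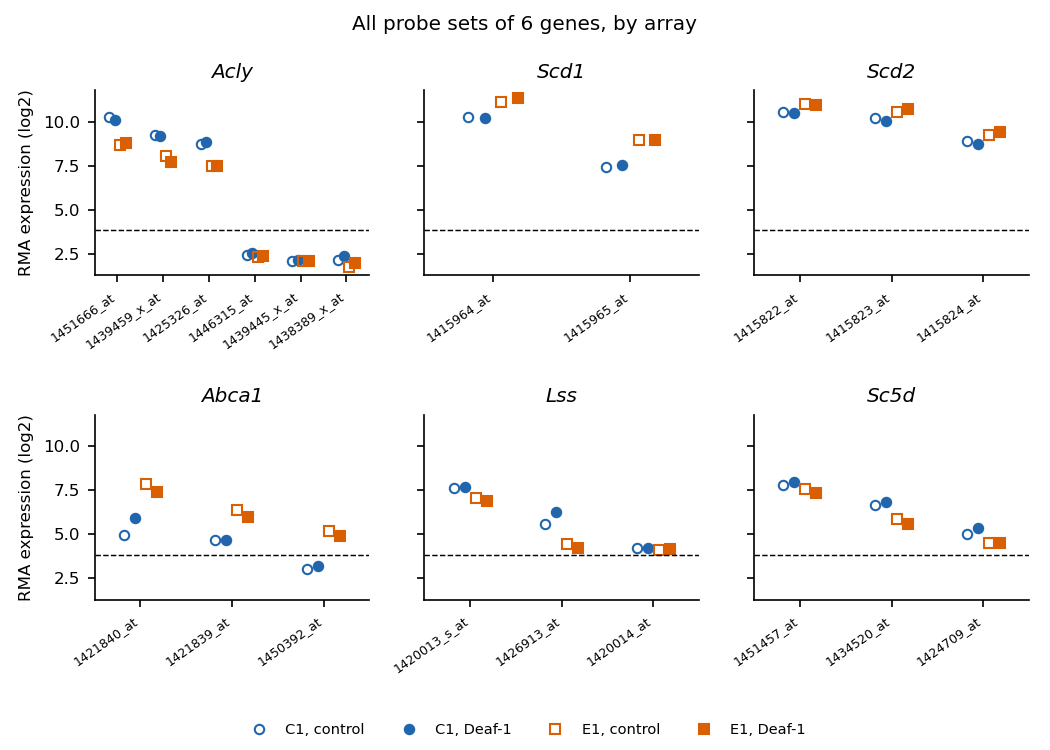
RMA expression (log2, vertical axis) on the 4 arrays for every probe set of 6 genes, with clone C1 as blue circles, clone E1 as orange squares, the control retrovirus open, the Deaf-1 retrovirus filled and the background level dashed. The clones separate in the same direction at all probe sets of Scd1, Scd2, Abca1 and Sc5d and at the 3 bright ones of Acly (-1.45, -1.34 and -1.34). Those of Lss do so too, although 1420014_at differs by only -0.09, close to background.

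Among the sterol enzymes the differences ran both ways. Lss, the cyclase that makes lanosterol, read 7.62 and 7.67 in C1, and 7.06 and 6.92 in E1, a difference of -0.65 (standard error 0.15, adjusted p = 0.190). Its second probe set, 1426913_at, read 5.61 and 6.26 in C1 and 4.43 and 4.21 in E1, a difference of -1.62 (unadjusted p under 0.01, adjusted p = 0.131), while the third, 1420014_at, stayed between 4.11 and 4.23, close to background. Tm7sf2 differed by -0.69 (standard error 0.17, adjusted p = 0.204). Sc5d, the lathosterol desaturase, read 7.79 and 8.0 in C1, and 7.61 and 7.34 in E1, a difference of -0.43 (adjusted p = 0.413), and its other probe sets gave -0.98 (1434520_at, unadjusted p under 0.01) and -0.68.

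In the other direction, Nsdhl, a sterol dehydrogenase, read 7.92 and 7.78 in C1, and 8.33 and 8.37 in E1, a difference of 0.51 (adjusted p = 0.261). Ebp, the sterol isomerase, read 7.73 on both C1 arrays and 8.16 and 8.06 in E1, a difference of 0.38 (adjusted p = 0.360). Hmgcs1 differed by 0.33 (adjusted p = 0.413), with 0.35, 0.33 and 0.48 at its 3 other probe sets above background. Hsd17b7 gave 0.21, and 0.64 and 0.39 at its other probe sets above background. None of these passed p under 0.01 at the probe set chosen, and Ebp and Sc5d, which act one after the other, lay on opposite sides of zero.

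Of the regulators, Srebf1 read lower on both E1 arrays, with a difference of -0.43 (adjusted p = 0.373). Srebf2 gave -0.28, and its second probe set gave -0.05. Scap had the same mean in both clones (8.93), and Insig1 and Insig2 differed by -0.09 and -0.32 with overlapping arrays. The 32 genes had 43 further probe sets, of which 32 lay above background by their mean. Of those, 7 (21.9%) had p under 0.01, against 10.1% of all probe sets above background. Several of the 7 read the same transcript, and they belonged to Acly, Abca1, Scd1, Lss and Sc5d.

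Further genes of the pathway were taken from 4 lists with 51 genes, of which 43 were measured. With Deaf-1, 0 of the 43 passed p under 0.01 in either direction, 0 had p under 0.05 (again beside 0.0111% and 0.433% of all probe sets), and the smallest p was 0.208, for Dgat1, which makes triglyceride. Of the 9 genes of SREBP processing and sterol sensing, Mbtps2, 1 of the proteases that cut SREBPs, had the largest change, -0.33, and Mbtps1, the other, had -0.18. Of 8 other sterol and isoprenoid enzymes, Pdss2 had the largest change, -0.38 (0.10 in C1 and -0.86 in E1), while Ggps1 had 0.17 and Pggt1b -0.20. Of 9 genes of cholesterol uptake, storage and transport, Lrp8 had -0.16 and Lipa 0.10. Of 17 genes of fatty acid and triglyceride synthesis, Dgat1 had the largest change, -0.33, and Acsl3 had -0.22.

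Between the clones 6 of the 43 passed p under 0.01, 3 higher and 3 lower in E1, or 13.95% against 10.3% of genes above background. None had an adjusted p under 0.05 from limma, and 10 had p under 0.05. Abcg1, the other main cholesterol exporter, read 3.72 and 3.65 in C1, below background, and 6.02 and 5.93 in E1 (at least 2.15 higher when set against the background level, adjusted p = 0.0529). Mylip, a ligase that degrades lipoprotein receptors, read 5.76 and 5.98 against 7.16 and 6.78 (1.10), and Lpin1, a phosphatidate phosphatase, was 0.85 higher. Abca1, Abcg1 and Mylip are known targets of liver X receptors, as is Srebf1, with -0.43. So are Fasn (-0.04), Lpl (-0.27) and Pltp (0.05), a phospholipid transfer protein chosen after its values were seen. The targets named here are not a full list, so they give no count of how such targets differ between the clones. Activity of liver X receptors was not tested. Nr1h3, which encodes 1 of these receptors and was chosen after its values were seen, read 3.73 and 3.63 in C1 and 3.86 and 4.10 in E1, near background.

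Pdss2, a subunit for the side chain of ubiquinone, read 6.42 and 6.52 in C1, and 5.42 and 4.56 in E1 (-1.49). Elovl5, an elongase of polyunsaturated fatty acids, was 0.83 lower in E1, and so was Erlin1, an endoplasmic reticulum protein that takes part in sterol-dependent protein turnover. Among genes that did not pass, Stard3, an endosomal sterol binder, gave -0.43 and Pggt1b, a prenyltransferase subunit, -0.34. By list, 2 of 9 genes of SREBP processing and sterol sensing passed, Mylip and Erlin1, but not the SREBP proteases Mbtps1 and Mbtps2. In the other lists 1 of 8 sterol and isoprenoid enzymes, 1 of 9 transport genes and 2 of 17 fatty acid genes passed. The medians of the 4 lists ran from -0.05 to 0.08.

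**Figure D5:**
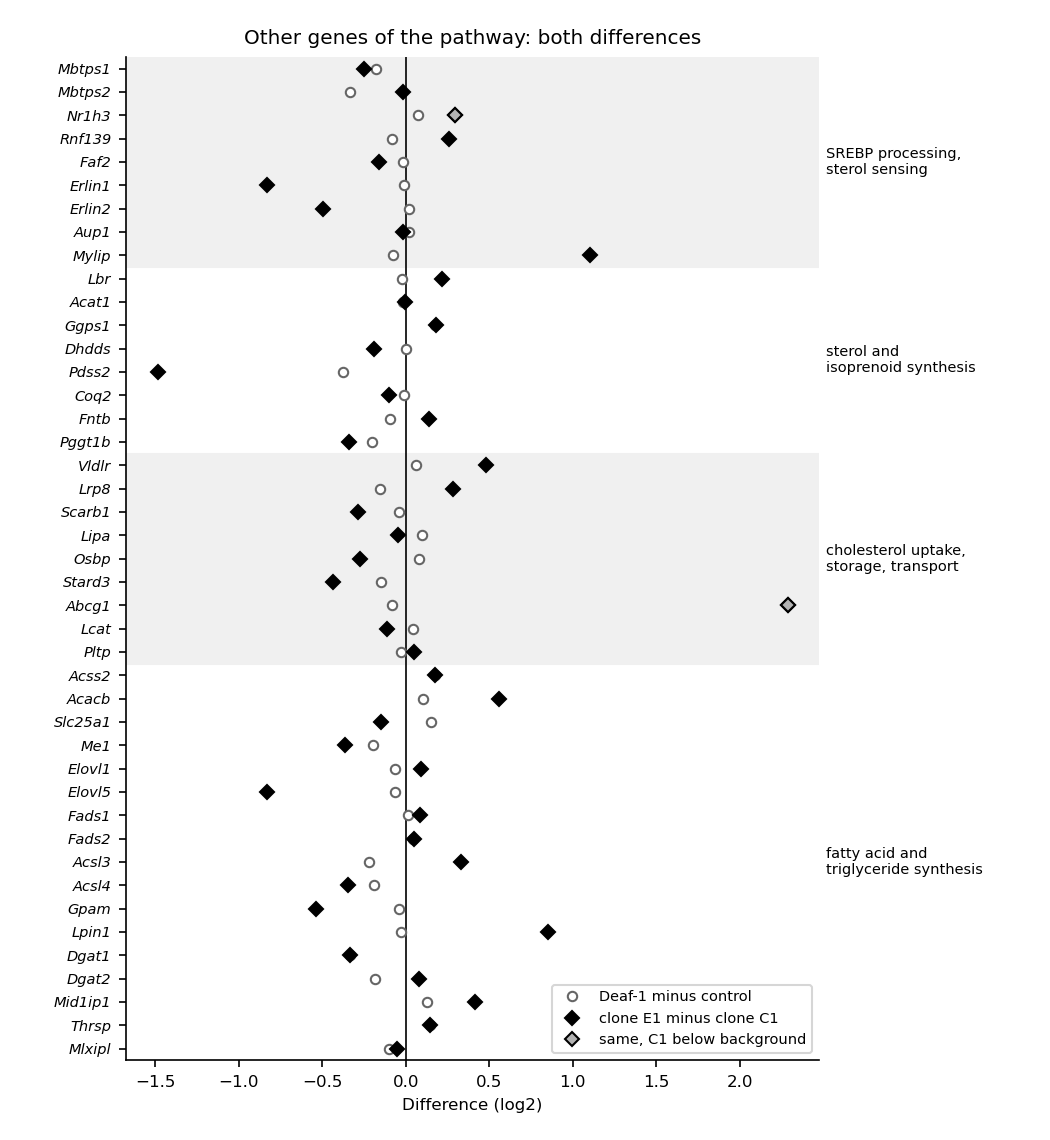
Differences (log2, horizontal axis) between Deaf-1 and control (open circles) and between clone E1 and clone C1 (diamonds, grey where both C1 arrays lay below background and both E1 arrays above it) for 43 further genes in 4 lists. The circles lie between -0.38 and 0.17, and the diamonds reach -1.49 for Pdss2 and, in grey, 2.29 for Abcg1, a difference from C1 values below background.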

How the data were processed

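RNA of 2 clones with each retrovirus was measured on 4 arrays, grouped by their labels. The authors deposited log2 values made with RMA, and RMA and limma are named without versions in the submitters' processing notes. RMA brings the arrays to a common distribution, so a shift of all genes would not be seen. Values were used as deposited, 64 control probe sets were left out, and none of the remaining 45037 was removed for low signal. Of these, 34945 carry 1 symbol, 932 several and 9160 none. All 32 measured genes were matched to RefSeq (GRCm38.p6) by identifier, and no symbol changed.

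Differences were tested with limma 3.58.1 (lmFit and eBayes) under R 4.3.3, two-sided, with Benjamini-Hochberg adjustment over all 45037 probe sets, and the code was tested on simulated data. Retroviruses were compared with clones as replicates, as the study did, and the clones with retrovirus as a block. Clones pair the arrays, since both retroviruses went into the same cells (correlation of deviations from the group means 0.54). The genes and the further lists were chosen with earlier results of these data known. Named genes are all members, and from the further lists those with p under 0.01 and the 2 per list and comparison with the largest moderated t above background, of which the text gives some. Alternatives were the block, 1 array left out, a background filter, 3 further normalizations, other priors and other choices of probe set.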

Additional observations from a re-analysis of the deposited data

Results flagged for a closer look

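Of the 32 genes, 4 had differences of opposite sign with Deaf-1 in the clones, each larger than the median absolute change of all probe sets in that clone (0.15 in C1 and 0.17 in E1). The difference between the clones was not tested, since each clone and retrovirus has 1 array. Insig2, which holds SREBPs back, had 0.29 in C1 and -0.35 in E1, a difference of -0.64 (E1 minus C1), and -0.47 and -0.75 at its other probe sets. Mvd, a mevalonate enzyme, had -0.25 and 0.38, a difference of 0.63, but 0.13 at its second probe set, with -0.08 and 0.05 in the clones. Sc5d, a sterol desaturase, had 0.21 and -0.27, a difference of -0.48, and -0.47 and -0.33 at its other probe sets, the last with values above zero in both clones. Abca1, the cholesterol exporter, had 1.0 and -0.42, a difference of -1.43, and -0.37 and -0.46 at its other probe sets. The first of these, 1421839_at, did not have opposite signs (-0.000897 in C1 and -0.37 in E1). The second, 1450392_at, lay below background on both C1 arrays. Opposite signs alone were also found for 63.2% of genes above background. The share of genes that meet the size condition as well was not counted, so the 4 genes cannot be called unusual.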

How the results depend on the processing

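Under every alternative run, 0 of the 32 genes passed p under 0.01 or an adjusted p under 0.05 for Deaf-1 minus control, including clone as a replicate block (0). For E1 minus C1 the 3 genes with p under 0.01 became 6 with no retrovirus block, 5 after a further quantile normalization, cyclic loess or median centring, 6 with an intensity trend in the prior, 5 of 22 at the second highest probe set and 6 with the mean over the probe sets of a gene. The 0 genes with an adjusted p under 0.05 became 4 with no retrovirus block, 1 among probe sets above background, 3 after quantile normalization, 2 after cyclic loess, 3 after median centring, 4 with the trend and 2 with the gene mean. With 1 array left out, the clone alone was in the model, and the counts were 3 to 4 and 0. Acly and Scd1 had p under 0.01 under all of these alternatives, and Abca1 under all but that without the control array of E1. Genes that joined these 3 in some alternatives were the sterol enzymes Lss, Tm7sf2, Nsdhl and Sc5d, and the desaturase Scd2. Lss also did so without probe sets of the _x_at and _s_at kinds. The clone as a block changed no call for the retroviruses. In single genes no called difference changed its sign. Leaving out 1 array moved the change with Deaf-1 by over 1 standard error in 22 cases. Such a fit has no clone term and leaves 1 retrovirus group with a single clone. Its change with Deaf-1 therefore includes part of the clone difference. The causes of the other shifts were not tested. The fits leave 1 or 2 residual degrees of freedom, which limits what can be detected, and probe sets near background cannot show a change of the transcript.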
